A study of Homo sapiens with 48 samples.

Results

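The cells described here, HK-2, are an established human cell line from the epithelium of the renal proximal tubule, exposed to the compound that the labels call Fk or to vehicle alone. Of the 48 arrays of the series, 12 belong to this comparison and were chosen by their titles: 3 arrays of Fk at 12 h against 3 vehicle controls of 12 h, and 3 arrays of Fk at 48 h against 3 vehicle controls of 48 h. The same 6 controls also served the compound called Ra in the labels. All groups shared the growth medium, which held epidermal growth factor, hydrocortisone, insulin, transferrin and selenite, and cells were treated near confluence 24 h after seeding. The labels call the 3 arrays of a group biological replicates and do not say whether they came from separate cultures on separate days. The p-values thus measure the spread between arrays within groups, pooled over all 48 arrays of the series and not the 12 alone. The sources used here give neither the full name of Fk nor its dose or vehicle.

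The proximal tubule reabsorbs most of the filtered solute and takes up many drugs, which makes its epithelium a usual cell type for tests of kidney toxicity. Cells respond to toxic compounds through a small number of shared programmes, among them the ATF4 and CHOP response to amino acid shortage and protein misfolding, the interferon response, the hypoxia programme, and changes in ribosome production and sterol synthesis. Gene lists for these programmes, for the calcineurin and mTOR pathways and for the FK506-binding proteins, and for markers of other cell types were read against the arrays.

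Levels are log2 signals, and a difference is the mean of 3 Fk arrays minus the mean of 3 vehicle arrays of the same time, with the SE of the fit. A gene was called where limma's p, adjusted over 11356 genes by Benjamini-Hochberg, was under 0.05. Where a group mean lies below log2 4, near the floor of the signal, the size of a difference is uncertain. The median SE of a difference at a single time was 0.26.

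HK-2 cells carried the keratins and cadherins of tubular epithelium but few of the transport proteins of the mature segment. Of 24 proximal tubule markers on the array 12 passed the filter on low signal, among them KRT8, KRT18, CDH2, CDH6, PAX8 and DPP4, while LRP2, CUBN, AQP1 and SLC34A1 did not. The markers of other cells were mostly low: 2 of 13 passed for other nephron segments, 3 of 10 for fibroblasts, 3 of 10 for endothelium and 1 of 10 for leukocytes. The mean level of the leukocyte markers ran from 2.46 to 2.49 on the 12 h controls and from 2.50 to 2.52 on the 12 h Fk arrays.

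One array stood apart. Fk 12 h replicate 3 correlated with the other 8 arrays of Fk, Ra and control at 12 h at r = 0.943 to 0.954, against 0.983 to 0.994 among those 8. Its upper quartile of signal was 6.85, below the 6.91 to 7.11 of the other 11 arrays. Its 3′ minus 5′ probe difference was 1.10 for ACTB and -0.02 for GAPDH, within the ranges of the other arrays (0.97 to 1.44 and -0.10 to 0.01). The counts, the list medians that depend on it and the 12 h differences of several genes are therefore also given without it. Without it the 12 h differences of the 35 leading genes at 12 h or at both times changed in size. All 35 kept their sign, but this was fixed in advance. These genes were chosen with all 3 Fk arrays of 12 h on 1 side of the controls. At 48 h the 6 arrays correlated at 0.964 to 0.990.

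Few genes passed the test with Fk. At 12 h 0 genes were called in either direction (0% of the genes tested), with 712 at an unadjusted p under 0.05 and a lowest adjusted p of 0.170. At 48 h 0 genes were called (0%), with 311 at an unadjusted p under 0.05 and a lowest adjusted p of 0.0849. With both times averaged, 1 gene was called higher (0.00881% of the genes tested) and 0 lower. The difference between the times gave 0 calls, with 337 genes at an unadjusted p under 0.05 and a lowest adjusted p of 0.412. These counts moved with the weighting of the arrays. With limma's array weights 836 genes were called at 12 h (449 higher, 387 lower) and 10 at 48 h. For the mean of both times 198 were called (130 higher, 68 lower). The weights ran from 0.054 to 5.04 over the 48 arrays, with 0.13 for Fk 12 h replicate 3 and 4.37 for replicate 1. Leaving out replicate 3 gave 1 call at 12 h and 0 for the mean.

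Single arrays also decided the counts. At 12 h 4 genes were called without Fk replicate 1 (ARRDC3, SLC16A14, SPDYA and RALA), 5 without Fk replicate 2 (TUT1, SBNO1, SLC16A14, ZBTB49 and ARRDC3), 1 without Fk replicate 3 (LINC01554) and 1 without control replicate 2 (TNFRSF10C). At 48 h 2 were called without control replicate 1 (PKP3 and SH2D3A), 5 without control replicate 3 (HMGA2, LINC01881, DOCK1, TGFA and P4HA1) and 1 without Fk replicate 1 (TGFA). The names in this paragraph were taken after their values were seen.

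The gene called over both times was SLC16A14, which encodes a member of the monocarboxylate transporter family. Its vehicle controls lay at 2.67, 3.22 and 2.96 at 12 h and the Fk arrays at 5.66, 5.88 and 9.75. At 48 h the controls lay at 2.53, 2.30 and 2.71 and the Fk arrays at 5.26, 5.05 and 5.24. Every Fk array was thus above every control at both times, and the 3 Fk arrays of 48 h lay close together, while replicate 3 of 12 h was far above its group. The gene rose by 3.41 ± 0.60 (SE) on the log2 scale over both times (adjusted p = 0.0209, limma), from 4.15 ± 0.84 at 12 h and 2.67 ± 0.84 at 48 h. Its controls were below log2 4, which leaves the size of the rise uncertain. The call was lost without any one of 9 arrays: the 3 controls of 12 h, the 3 Fk arrays of 48 h, controls 1 and 2 of 48 h, and Fk 12 h replicate 3. The adjusted p was then 0.0558 to 0.105, and the difference without Fk 12 h replicate 3 was 2.74 (adjusted p = 0.0710). It was also lost when the 12 arrays were fitted alone (adjusted p = 0.309) or the 18 arrays of Fk, Ra and control (adjusted p = 0.185), with the same difference. Against the same controls, Ra gave 2.99 at 12 h and 1.92 at 48 h, and CsA against its own controls gave 0.36 and -0.04.

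ARRDC3, an alpha-arrestin that acts in the trafficking of cell surface receptors, came next. At 12 h the controls lay at 8.30, 8.45 and 8.55 and the Fk arrays at 9.26, 9.49 and 11.25. At 48 h the controls lay at 8.44, 8.41 and 9.37 and the Fk arrays at 9.47, 9.19 and 9.80. The groups did not overlap at 12 h, and at 48 h the highest control lay above the lowest Fk array. The mean difference was 1.16 ± 0.24 (adjusted p = 0.137), from 1.57 ± 0.34 at 12 h (0.94 without replicate 3) and 0.75 ± 0.34 at 48 h. It was called for the mean of both times without Fk 12 h replicate 1 (adjusted p = 0.0139) and without control 48 h replicate 3 (adjusted p = 0.0302).

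**Figure D1:**
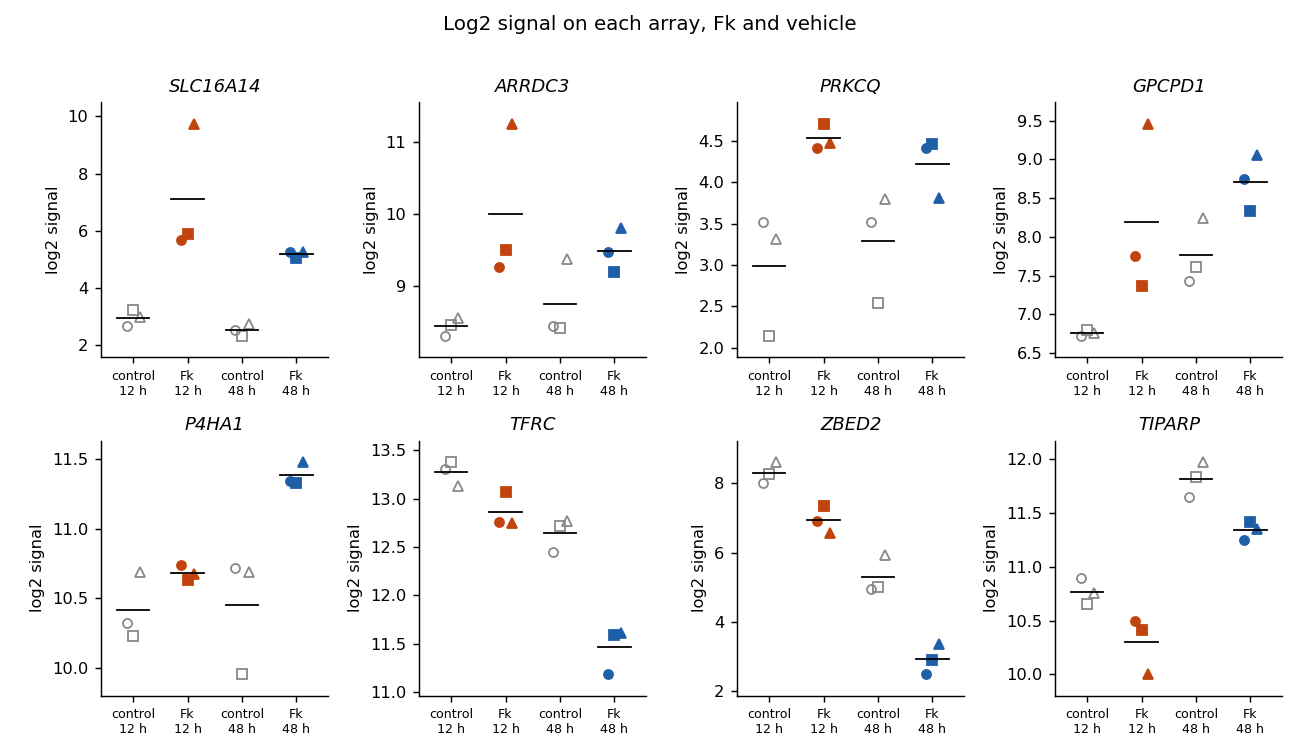
Log2 signal (vertical axis) of 8 genes on each of the 12 arrays, by group (horizontal axis). Open grey symbols are vehicle controls, filled symbols Fk at 12 h (orange) and 48 h (blue). Circle, square and triangle are replicates 1, 2 and 3, whose numbers were not taken as a pairing, and the bar is the group mean. SLC16A14 stands at 5.05 to 9.75 on all 6 Fk arrays and at 2.30 to 3.22 on the controls, while TFRC, ZBED2 and TIPARP stand lower with Fk at both times.

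To show the regulatory stretches of genes that differed the same way at both times, the 250 bases before the annotated start are printed for SLC16A14 (chr2:230068925-230069174), for the downstream start of ARRDC3 (chr5:91380098-91380347), for PRKCQ (chr10:6580647-6580896) and for TFRC (chr3:196082091-196082340), the last for a gene lower with Fk. All lie on the minus strand of GRCh38.p14 and are RefSeq sequences, written 5′ to 3′. Capitals mark matches on either strand to GTAAACA (bound by FOXO factors), ACGTG (the hypoxia response core), CACGTG (E-box), GGAAA (NFAT core) and TGANTCA (AP-1), of which ACGTG lies within CACGTG.
SLC16A14: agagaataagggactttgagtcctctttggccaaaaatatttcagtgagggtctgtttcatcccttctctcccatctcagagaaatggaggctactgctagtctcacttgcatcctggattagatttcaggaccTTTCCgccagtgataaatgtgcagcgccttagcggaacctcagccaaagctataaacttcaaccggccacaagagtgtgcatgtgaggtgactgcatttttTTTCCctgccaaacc
ARRDC3: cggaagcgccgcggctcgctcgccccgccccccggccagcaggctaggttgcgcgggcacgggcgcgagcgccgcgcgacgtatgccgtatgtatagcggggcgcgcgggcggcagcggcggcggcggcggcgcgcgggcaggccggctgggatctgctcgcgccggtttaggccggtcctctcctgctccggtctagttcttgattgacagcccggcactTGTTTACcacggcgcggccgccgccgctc
PRKCQ: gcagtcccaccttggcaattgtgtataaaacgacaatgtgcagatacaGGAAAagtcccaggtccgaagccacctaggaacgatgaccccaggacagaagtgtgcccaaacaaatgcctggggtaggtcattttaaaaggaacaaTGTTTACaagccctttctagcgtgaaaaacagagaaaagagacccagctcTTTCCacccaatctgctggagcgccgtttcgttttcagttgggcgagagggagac
TFRC: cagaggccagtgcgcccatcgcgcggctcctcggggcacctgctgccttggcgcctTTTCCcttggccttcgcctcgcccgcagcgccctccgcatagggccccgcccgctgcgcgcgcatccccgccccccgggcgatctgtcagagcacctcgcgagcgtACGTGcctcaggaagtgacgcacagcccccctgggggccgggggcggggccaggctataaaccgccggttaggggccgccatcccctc

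The SLC16A14 stretch held 2 matches to the NFAT core and none to the other 4 motifs. ARRDC3 held 1 FOXO match, and the stretch before its upstream start held none of the 5 motifs. PRKCQ held 1 FOXO match and 2 NFAT core matches, and TFRC 1 hypoxia response core and 1 NFAT core. Over 13695 such stretches of 9370 tested genes the share with a match was 2.20% for FOXO, 53.5% for the NFAT core, 22.5% for the hypoxia response core, 8.47% for the E-box and 4.42% for AP-1, so the NFAT core is common and FOXO rare. Of the 10 leading genes higher at both times, 6 had sequences in the table, and 1 of these held a FOXO match and 5 an NFAT core; of the 10 leading genes lower at both times, 7 had sequences, and 1 held a FOXO match and 5 an NFAT core. A match is only a run of letters and is no evidence of binding.

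Over all genes the differences at 12 h and at 48 h were weakly alike. Fk arrays lay above all controls for 1055 genes at 12 h (9.29%) and 702 at 48 h (6.18%), and below all controls for 737 (6.49%) and 442 (3.89%). At both times 93 genes were above (0.819%) and 37 below (0.326%), while 48 lay on opposite sides, 29 above at 12 h and below at 48 h and 19 the other way. The 93 were 8.82% of the genes above at 12 h and 13.2% of those above at 48 h, and the 37 were 5.02% and 8.37% of the genes below. Across genes, which are not independent replicates, the differences at the 2 times correlated at r = 0.134 (Spearman 0.127), and at 0.244 (0.230) without Fk 12 h replicate 3. The times share no array.

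Without that array, and so with 2 Fk arrays against 3 controls at 12 h, 254 genes lay above and 93 below the controls at both times, and 88 on opposite sides. A rule with fewer arrays is passed more often: 20.5% of the genes then lay above and 14.2% below at 12 h alone. This count was added after the data were seen.

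**Figure D2:**
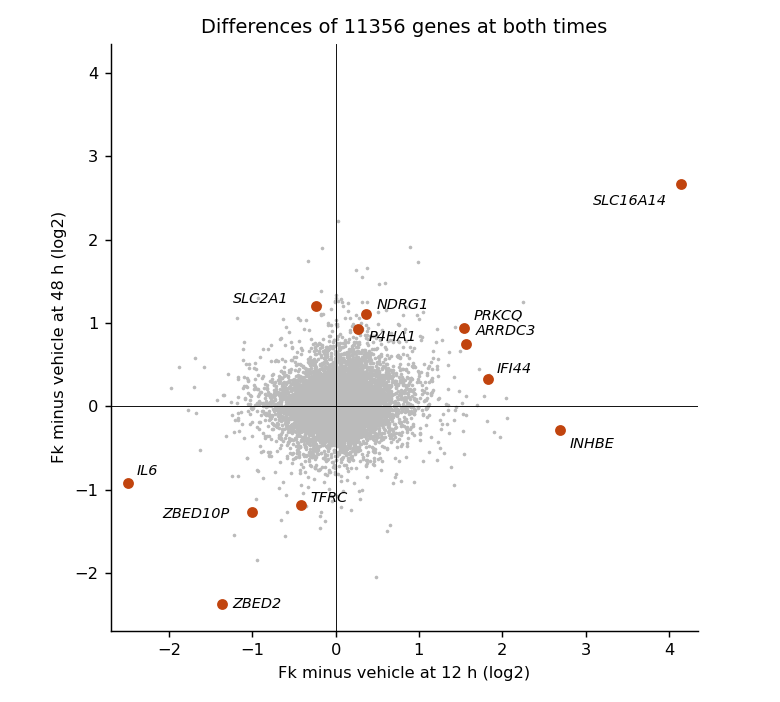
Difference between Fk and vehicle (log2) at 12 h (horizontal axis) and at 48 h (vertical axis) for the 11356 genes tested, 1 grey point per gene, with some genes of the text in orange. Most points lie near 0 at both times, SLC16A14 stands alone at the upper right with 4.15 and 2.67, and ZBED2 at the lower left with -1.36 and -2.38.

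Differences past 1 on the log2 scale were found for 177 genes at 12 h and 79 at 48 h, and few genes passed at both, all named here for that reason after their values were seen. The 3 higher ones were SLC16A14, C5AR1 (complement receptor, 2.25 at 12 h and 1.25 at 48 h) and SLC44A2 (a choline transporter-like protein, 1.05 and 1.14). The 2 lower ones were ZBED2 (-1.36 and -2.38) and RHEX (-1.22 and -1.54). FOSL1, an AP-1 subunit, passed with opposite signs, at -1.19 and 1.05, with an SD over the 3 Fk arrays of 12 h of 2.19.

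Further genes above the controls at both times, none of them called, included signalling and lipid genes. PRKCQ, which encodes protein kinase C theta, lay at 3.52, 2.14 and 3.32 on the controls and 4.42, 4.71 and 4.47 on the Fk arrays at 12 h, and at 3.52, 2.54 and 3.80 against 4.41, 4.46 and 3.81 at 48 h. Its difference was 1.54 ± 0.44 at 12 h and 0.94 ± 0.44 at 48 h, with controls below log2 4 and the lowest Fk array of 48 h just above the highest control. A second PRKCQ probe set gave 0.29 and 0.41. GPCPD1, a phosphodiesterase that cleaves glycerophosphocholine, lay at 6.72, 6.80 and 6.76 against 7.75, 7.37 and 9.46 at 12 h, and at 7.43, 7.61 and 8.24 against 8.75, 8.33 and 9.05 at 48 h. The differences were 1.44 ± 0.43 and 0.96 ± 0.43, and its other 2 probe sets gave 0.16 and 2.07 at 12 h and 1.56 and 1.00 at 48 h, all in 1 direction. STIM2, a calcium sensor of the endoplasmic reticulum, differed by 0.76 ± 0.26 and 0.48 ± 0.26, while Ra gave -0.01 and 0.10 against the same controls. Its other 2 probe sets gave 0.01 and 0.51 at 12 h and -0.10 and 0.15 at 48 h, so that 1 of the 3 did not differ in this direction at both times.

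The rest of the 10 leading higher genes were CNOT6L (an mRNA deadenylase), CAPRIN2 (an RNA-binding protein), MAPKAPK5 (a kinase downstream of MAP kinases), ZDHHC13 (a palmitoyltransferase), the antisense transcript ANXA2R-AS1 and ALDH3A1, with differences of 0.10 to 1.15 at 12 h and 0.41 to 0.53 at 48 h. For CNOT6L the direction at 12 h rested on the probe set used, at 0.68, since the other 2 gave -0.54 and -0.06 (0.87 and 0.95 at 48 h). ALDH3A1, an aldehyde dehydrogenase, was among the most regular at 48 h, at 4.40, 4.41 and 4.50 on the controls and 4.77, 5.01 and 4.83 on the Fk arrays, a difference of 0.43 ± 0.09 (adjusted p = 0.0849). At 12 h only 1 Fk array, at 4.68, was clearly off the controls' 4.40 to 4.42. For ALDH3A1 Ra gave 0.01 and -0.01 and CsA 0.02 and 0.00. The difference between Fk and Ra at 48 h passed its test (adjusted p = 0.00108, limma). In that comparison 1962 genes passed, and 555 without Ra 48 h replicate 2, whose upper quartile of signal was 6.20.

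Among the genes below the controls at both times the transferrin receptor led. TFRC, which brings iron-loaded transferrin into the cell, lay at 13.31, 13.38 and 13.13 on the controls and 12.76, 13.07 and 12.75 with Fk at 12 h, and at 12.45, 12.72 and 12.77 against 11.18, 11.59 and 11.61 at 48 h. The gap between the groups was narrow at 12 h and wide at 48 h. The differences were -0.41 ± 0.30 and -1.19 ± 0.30 (mean -0.80 ± 0.21, adjusted p = 0.509), and 2 further probe sets gave -0.56 and -0.45 at 12 h and -0.99 and -1.16 at 48 h. The remaining probe set gave -0.06 and 0.20. TFRC was lower with Fk than with Ra at 48 h, with a difference of -0.95 ± 0.30 (adjusted p = 0.0243, limma). This included Ra 48 h replicate 2, the array of low signal.

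ZBED2, a zinc finger transcription factor, showed the widest shift in this direction. Its controls lay at 8.02, 8.26 and 8.62 and the Fk arrays at 6.91, 7.34 and 6.56 at 12 h, and at 4.96, 5.00 and 5.92 against 2.48, 2.90 and 3.37 at 48 h. The differences were -1.36 ± 0.80 and -2.38 ± 0.80 (mean adjusted p = 0.757), with an SE well above the median, and its 48 h Fk level was below log2 4. ZBED10P, a pseudogene, differed by -1.0 and -1.27. KAZN (a desmosome-associated protein), USP14 (a deubiquitinase of the proteasome), NSUN4 (a mitochondrial RNA methyltransferase), SLC26A11 (an anion transporter), TRIP6 (a LIM domain protein), MORC2-AS1 and ANXA2R-OT1 differed by -0.29 to -1.06 at 12 h and by -0.33 to -0.62 at 48 h. Of the 2 other NSUN4 probe sets 1 went the other way over both times, at 0.15 against -0.47 for the set used. One KAZN probe set gave 0.00 and -0.13, and one of USP14 gave -0.45 and 0.01.

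TIPARP, an ADP-ribosyltransferase induced by the aryl hydrocarbon receptor, was lower to the same degree at both times. Its controls lay at 10.89, 10.65 and 10.76 and the Fk arrays at 10.50, 10.41 and 10.00 at 12 h, and at 11.65, 11.83 and 11.97 against 11.25, 11.41 and 11.35 at 48 h. The differences were -0.46 ± 0.24 and -0.48 ± 0.24 and were not called. In the same list of drug transporters and xenobiotic metabolism (20 genes measured) ALDH3A1 was the gene above and TIPARP the gene below at both times. ABCB1, the multidrug efflux pump, lay at 9.88 to 9.92 on the 12 h controls and 9.34 to 9.65 with Fk, and at 9.21 to 9.45 against 8.65 to 9.28 at 48 h, so that its groups overlapped at the later time.

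Grouped by programme, 0 genes of the 28 pathway lists were called at 12 h, at 48 h or in the difference between the times, so the lists are described by their medians and by how many members lay above or below all controls. The median over all genes tested was 0.02 at each time. The list medians were largest at 12 h for the ATF4 and CHOP targets (0.40), the interferon-stimulated genes (0.34) and, in the other direction, the immediate early genes (-0.32) and the genes of ribosome biogenesis (-0.26). At 48 h they were largest for sterol synthesis (-0.43), the metallothioneins (0.32) and the immediate early genes (0.28).

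**Figure D3:**
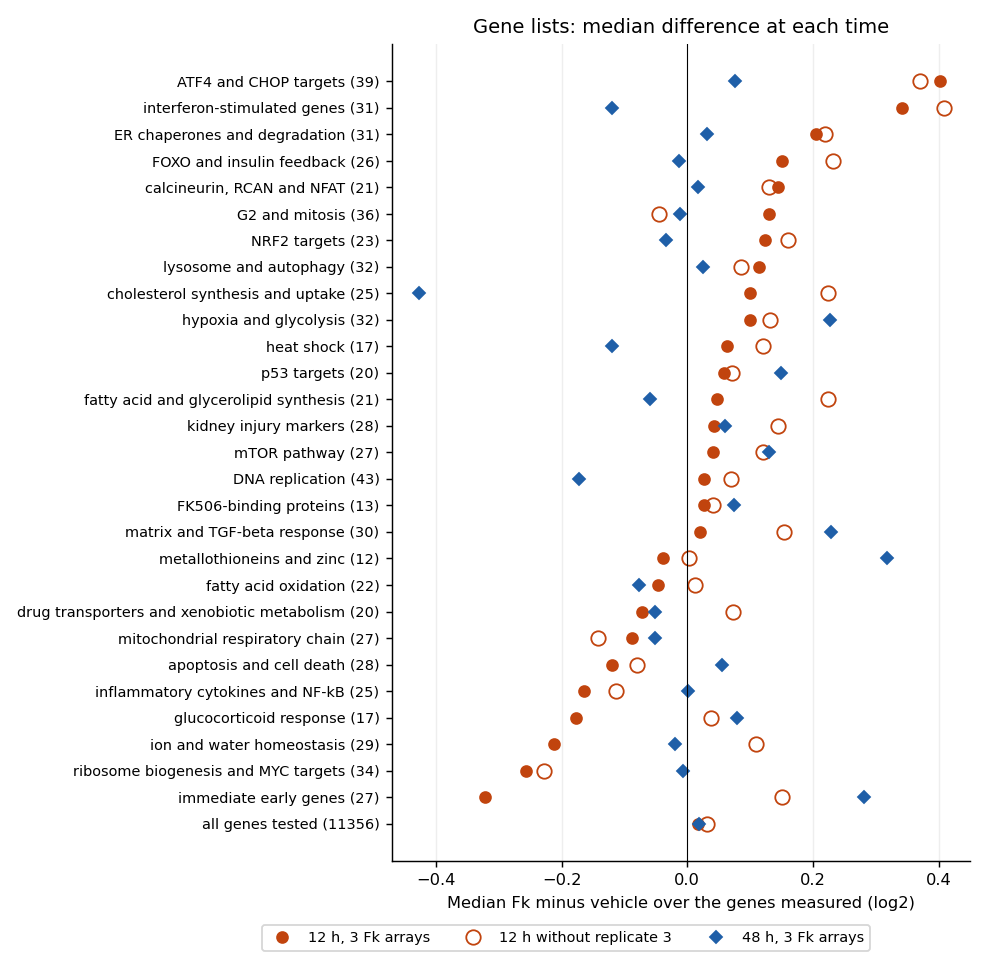
Median difference between Fk and vehicle (log2, horizontal axis) over the measured genes of 28 pathway lists and of all genes tested, with the number of genes in parentheses. Orange points are 12 h with 3 Fk arrays, open circles 12 h without replicate 3, and blue diamonds 48 h. The ATF4 and CHOP targets, the interferon-stimulated genes and ribosome biogenesis lie away from 0 at 12 h with and without replicate 3 and near 0 or on the other side at 48 h, and the immediate early genes change side at 12 h with that array.

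The ATF4 and CHOP targets, which include the enzymes of serine and asparagine synthesis, had a median of 0.40 at 12 h (0.37 without replicate 3) and 0.08 at 48 h over 39 genes. At 12 h 9 lay above all controls (23.1%, against 9.29% of all genes) and 0 below; at 48 h 3 lay above and 0 below. INHBE, a subunit of activin E, lay at 5.92, 3.27 and 4.72 on the 12 h controls and at 8.13, 6.36 and 7.50 with Fk, a difference of 2.69 ± 0.98 (2.61 without replicate 3, adjusted p = 0.715 with it). At 48 h its controls themselves lay at 12.26, 11.85 and 11.41, and the Fk arrays at 12.02, 11.56 and 11.07. The controls of 48 h were thus several log2 units above those of 12 h, and the Fk arrays did not exceed them.

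Other members of the list also had higher controls at 48 h. ASNS, asparagine synthetase, lay at 9.36, 8.25 and 9.56 on the 12 h controls and 10.70, 9.35 and 11.18 with Fk, and at 11.68 to 12.56 against 12.09 to 12.61 at 48 h. Its groups overlapped at both times. PHGDH, the first enzyme of serine synthesis, lay at 7.92 to 8.56 against 8.79 to 9.34 at 12 h and at 9.31 to 9.85 against 9.82 to 10.17 at 48 h, with differences of 0.85 ± 0.38 and 0.44 ± 0.38. DDIT3, which encodes CHOP, lay at 8.24 to 8.64 on the 12 h controls and at 9.07, 8.26 and 11.34 with Fk, a difference of 1.10 ± 0.79 (0.21 without replicate 3). On the single arrays the list's median against the control mean was 0.71, 0.09 and 0.53 with Fk at 12 h, and 0.19, -0.37 and 0.18 on the controls, which overlap.

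Chaperones and degradation factors of the endoplasmic reticulum had a median of 0.20 at 12 h and 0.03 at 48 h over 31 genes. At 12 h 9 lay above all controls (29.0%, against 9.29% of all genes) and 0 below, and at 48 h 1 above and 0 below. XBP1, the transcription factor of the unfolded protein response, lay at 9.31, 8.74 and 9.22 against 9.97, 9.51 and 10.29 at 12 h, and DNAJB9, a co-chaperone, at 8.81, 8.26 and 8.55 against 9.36, 8.90 and 10.22. ERO1A, the oxidase that drives disulfide formation, was the member above at both times, with 0.36 ± 0.28 and 0.40 ± 0.28. Its direction at 12 h rested on the probe set used, since the others gave -0.08 and -0.15 (0.55 and 0.38 at 48 h). HSPA5, the main chaperone of the compartment, lay at 13.15 to 14.05 against 13.89 to 14.41 at 12 h and at 14.53 to 15.68 against 14.64 to 15.65 at 48 h, where the 2 groups covered nearly the same range.

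Interferon-stimulated genes had a median of 0.34 at 12 h (0.41 without replicate 3) and -0.12 at 48 h over 31 genes. At 12 h 7 lay above all controls (22.6%, against 9.29% of all genes) and 0 below, and at 48 h 0 above and 1 below. On the single arrays of 12 h the list's median was 0.46, 0.50 and 0.08 with Fk and 0.21, 0.00 and -0.25 on the controls. These ranges overlapped. IFI44 lay at 6.87, 6.10 and 5.41 on the controls and at 8.01, 7.86 and 7.99 with Fk at 12 h, a difference of 1.83 ± 0.39 (adjusted p = 0.170). The 3 Fk arrays lay close together, all above the more widely spread controls. At 48 h the controls of IFI44 ran from 4.06 to 6.24 and the Fk arrays from 5.06 to 6.13. IFIH1, a sensor of double-stranded RNA, differed by 0.91 ± 0.37 at 12 h and by -0.14 at 48 h, and RSAD2, an antiviral enzyme, lay above all controls at 12 h (1.25) and below all at 48 h (-0.50). Ra gave 1.74 and 0.68 for IFI44 against the same controls.

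Ribosome biogenesis was the list with the largest number of members on 1 side at 12 h. Of 34 genes 14 lay below all controls (41.2%, against 6.49% of all genes) and 0 above, and at 48 h 0 lay on either side. NOP16, a nucleolar protein, lay at 10.59, 10.62 and 10.57 on the controls and 10.00, 9.90 and 10.19 with Fk at 12 h, a difference of -0.56 ± 0.27 (adjusted p = 0.792). BYSL, which acts in the assembly of the small subunit, lay at 9.83, 9.57 and 9.83 against 9.26, 9.21 and 8.71, a difference of -0.68 ± 0.24. NIP7 (-0.53), POLR1B, a subunit of RNA polymerase I (-0.52), HEATR1 (-0.45) and NOP14 (-0.42) were of like size with all arrays. Without Fk 12 h replicate 3 they were -0.32, -0.22, -0.19 and -0.44, in that order. The list's median on the single Fk arrays was -0.25, -0.27 and -0.16, below the -0.06 to 0.04 of the 12 h controls, and at 48 h it was -0.11, 0.03 and 0.06 within the controls' -0.21 to 0.28. MYC, the transcription factor that drives these genes, lay at 11.97, 11.56 and 12.03 against 11.92, 11.55 and 9.18 at 12 h, so that only replicate 3 differed.

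**Figure D4:**
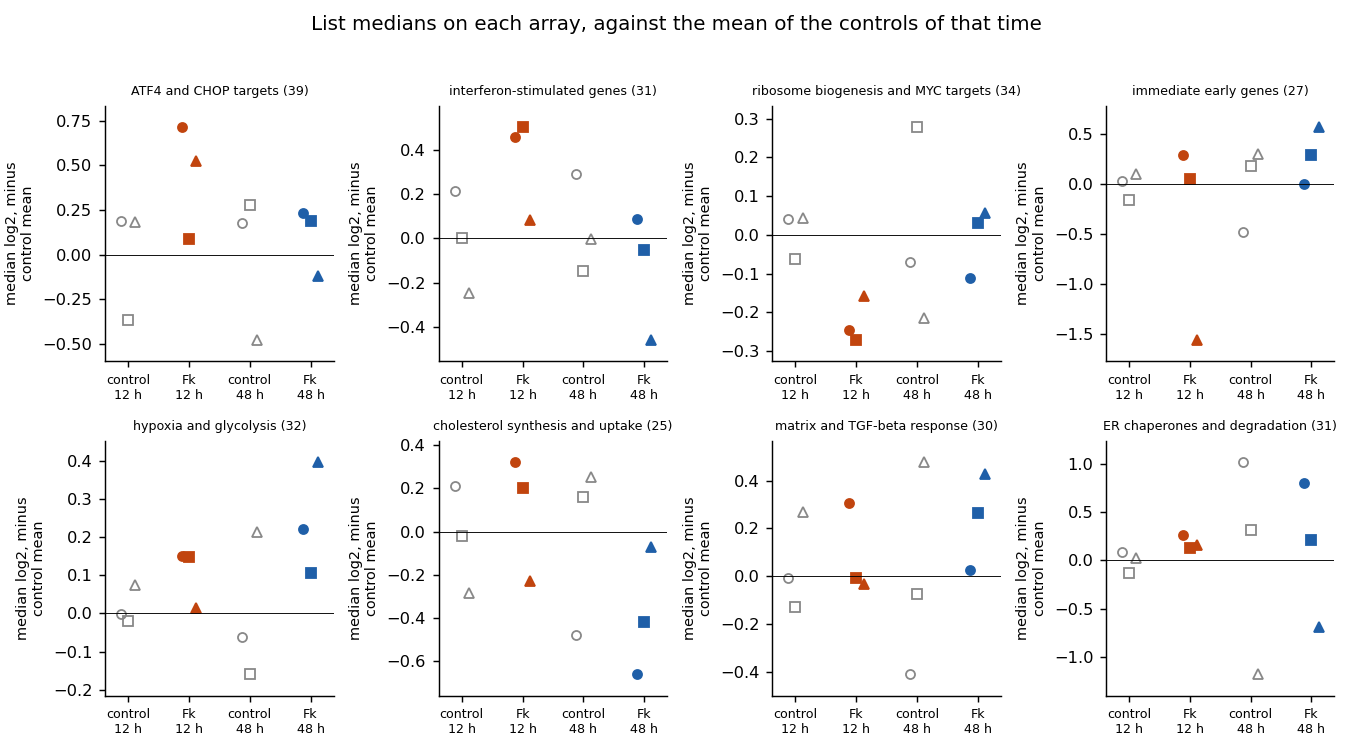
Median over the measured genes of 8 lists of the log2 signal of each array minus the mean of the 3 controls of its time (vertical axis), by group (horizontal axis); symbols as in the plots of single genes, and the number of genes in parentheses. Ribosome biogenesis stands at -0.27 to -0.16 on the 3 Fk arrays of 12 h, below the controls, the immediate early genes at -1.55 on replicate 3 alone, and the chaperones spread from -1.18 to 1.02 over the 48 h controls.

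The immediate early genes, the first to respond to growth factors, rested on 1 array at 12 h. Their median over 27 genes was -0.32 with all arrays and 0.15 without Fk 12 h replicate 3, and it was 0.29, 0.05 and -1.55 on the 3 Fk arrays. The inflammatory genes IL6 (8.12, 6.85 and 3.24 with Fk against 9.07, 7.70 and 8.93) and CXCL8 (12.91, 12.76 and 8.39 against 13.13, 12.72 and 13.33) were likewise low on that array. The median of the 27 immediate early genes at 48 h was 0.28, with 4 above all controls (14.8%, against 6.18% of all genes) and 0 below. On the single arrays of 48 h it was 0.01, 0.29 and 0.57 with Fk and -0.48, 0.19 and 0.30 on the controls, which overlap. KLF4 lay at 9.13, 9.66 and 8.87 on these controls and 9.96, 9.96 and 10.68 with Fk, a difference of 0.98. SPRY4, a feedback inhibitor of growth factor signalling, lay at 4.60, 4.30 and 4.40 against 5.13, 5.50 and 6.20, a difference of 1.18.

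The hypoxia and glycolysis list had the most members on 1 side at 48 h, 8 of 32 above all controls (25.0%, against 6.18% of all genes) and 0 below, with a median of 0.23. On the single arrays of 48 h its median was 0.22, 0.11 and 0.40 with Fk and -0.06, -0.16 and 0.21 on the controls. These ranges overlapped. The list's median at 12 h was 0.10, with 4 above and 0 below. PDK1, which restrains the entry of pyruvate into mitochondria, was above at both times (0.32 and 0.45). P4HA1, a collagen prolyl hydroxylase, lay at 10.72, 9.95 and 10.69 on the 48 h controls and 11.34, 11.33 and 11.48 with Fk, a difference of 0.93 ± 0.19 (adjusted p = 0.0849). At 12 h its difference was 0.27 ± 0.19. SLC2A1, the glucose transporter GLUT1, lay at 8.92, 8.78 and 8.74 against 9.80, 9.90 and 10.32 at 48 h, and at 8.10, 7.67 and 7.91 against 7.65, 7.53 and 7.81 at 12 h. NDRG1 lay at 11.09, 10.42 and 9.97 against 12.14, 11.42 and 11.21 at 48 h. The differences of 1.20 ± 0.41 for SLC2A1 and 1.10 ± 0.45 for NDRG1 were not called. Ra gave -0.72 for SLC2A1 at 48 h, and the difference between Fk and Ra was 1.91 ± 0.41 (adjusted p = 0.00210, limma). Both values include Ra 48 h replicate 2, the array of low signal.

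Sterol synthesis was lower in the median at 48 h, but its controls were spread widely. Over 25 genes the median was -0.43 at 48 h and 0.10 at 12 h. On the single arrays of 48 h it was -0.66, -0.42 and -0.07 with Fk and -0.48, 0.16 and 0.25 on the controls. The ranges overlapped, though each Fk array lay below the control of the same replicate number, which was not taken as a pairing. At 48 h 1 gene lay above and 1 below all controls. MVK, mevalonate kinase, lay at 7.16, 8.48 and 8.60 on the controls and 6.68, 7.02 and 7.49 with Fk, a difference of -1.02 ± 0.31. HMGCS1, the synthase of the first committed steps, lay at 9.44 to 11.06 against 9.15 to 10.61. Fatty acid oxidation had a median of -0.08 over 22 genes, and 6 of these lay below all 48 h controls (27.3%, against 3.89% of all genes) and 1 above. SLC25A20, the carnitine carrier, lay at 6.52, 6.04 and 5.59 against 5.51, 4.72 and 5.14, a difference of -0.92 ± 0.28, and EHHADH, a peroxisomal enzyme, differed by -0.56. ACSL1, which activates fatty acids, lay at 12.71, 13.02 and 13.21 against 11.91, 12.34 and 12.17.

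The matrix and TGF-beta list had 7 of 30 genes above all controls at 48 h (23.3%, against 6.18% of all genes) and 0 below. Its median was 0.23. On the single arrays of 48 h it was 0.03, 0.26 and 0.43 with Fk and -0.41, -0.07 and 0.48 on the controls. The ranges overlapped. TGFB1 lay at 9.68, 9.11 and 9.42 against 10.64, 10.22 and 9.74, TGFBI, a matrix protein induced by TGF-beta, at 10.10, 10.31 and 10.72 against 10.93, 10.93 and 11.58, and COL7A1 at 8.45, 8.39 and 8.62 against 9.17, 9.47 and 9.13. The differences were 0.79 ± 0.46, 0.77 ± 0.38 and 0.77 ± 0.26, and PLAUR, the urokinase receptor, differed by 1.14. At 12 h 0 of the 30 lay above and 1 below, and TGFB1 lay at 9.96, 10.06 and 9.01 with Fk against 8.80 to 9.46. TGFA, a ligand of the EGF receptor outside this list, lay at 9.38, 9.11 and 9.79 against 9.87, 10.66 and 10.66 at 48 h, a difference of 0.97 ± 0.21 (adjusted p = 0.136) with Ra at 1.05.

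Kidney injury markers were mixed. Of 28 genes 1 lay above and 2 below all controls at 12 h. At 48 h 6 lay above (21.4%, against 6.18% of all genes) and 0 below. The medians were 0.04 and 0.06. HAVCR1, the injury molecule KIM-1, lay at 10.39 to 10.78 against 9.85 to 10.88 at 12 h and at 9.71 to 10.66 against 8.91 to 10.39 at 48 h, overlapping at both times. CLU, clusterin, lay at 11.02, 11.27 and 11.36 against 11.44, 11.67 and 11.89 at 12 h and overlapped at 48 h. SOX9, a transcription factor of tubular repair, lay at 4.57, 4.94 and 4.91 against 5.18, 5.97 and 7.15 at 48 h, a difference of 1.29 ± 0.80. GDF15 lay at 13.10, 13.15 and 12.64 against 13.45, 13.40 and 13.78 at 48 h, and LCN2 overlapped at both times.

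Among the calcineurin, RCAN and NFAT genes, which carry the calcium signal to transcription, 9 of 21 lay above all controls at 12 h (42.9%, against 9.29%) and 1 below, and 3 above and 1 below at 48 h. The medians were small, at 0.14 and 0.02. MEF2C lay at 4.21, 3.90 and 2.62 on the 12 h controls and 4.70, 4.64 and 5.64 with Fk, and PPP3CC, a catalytic subunit of calcineurin, at 5.66, 5.83 and 5.93 against 6.14, 6.17 and 7.43. CRTC3 and CRTC2, coactivators that calcineurin dephosphorylates, lay above at both times, CRTC3 by 0.23 and 0.38 and CRTC2 by 0.25 and 0.16. RCAN1, an inhibitor of calcineurin, lay at 8.19, 8.21 and 8.49 against 8.60, 8.36 and 8.99 at 12 h and at 8.83, 9.01 and 9.04 against 9.18, 9.40 and 7.96 at 48 h, overlapping at both. The FK506-binding proteins had medians of 0.03 and 0.08 over 13 genes, with 1 above and 1 below at 12 h and 0 at 48 h. FKBP1A, the abundant cytosolic member, differed by 0.08 ± 0.17 at each time, and FKBP5 by -0.06 and -0.04. FKBP10, a collagen chaperone, was the member above at 12 h (0.49).

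The 26 FOXO and insulin feedback genes, which rise when insulin signalling falls, had medians of 0.15 at 12 h and -0.01 at 48 h. At 12 h 5 lay above all controls (19.2%, against 9.29% of all genes) and 0 below. Besides ARRDC3 these were ARRDC4, PIK3IP1, CCNG2 and CDKN1B. CCNG2, an atypical cyclin, lay at 10.90, 10.70 and 10.76 against 11.48, 11.44 and 12.08, and CDKN1B, the cell cycle inhibitor p27, at 9.94, 10.01 and 9.80 against 10.25, 10.44 and 11.42. At 48 h both overlapped their controls. TXNIP, an alpha-arrestin that limits glucose uptake, lay at 8.47, 8.87 and 9.45 against 9.81, 9.39 and 11.68 at 12 h, and at 3.67, 3.55 and 4.04 against 5.37, 4.28 and 3.55 at 48 h. The mTOR pathway, which couples insulin and amino acids to growth, had 2 of 27 above at 12 h (7.41%, against 9.29% of all genes). At 12 h 3 lay below (11.1%, against 6.49%), and at 48 h 2 above (7.41%, against 6.18%) and 0 below.

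The metallothioneins had medians of -0.04 and 0.32 (with control medians of -0.56 to 1.04 on single arrays of 48 h). Lysosome and autophagy genes had 7 of 32 above at 12 h (21.9%, against 9.29% of all genes) and 0 below. At 48 h 2 lay above (6.25%, against 6.18%) and 1 below (3.12%, against 3.89%). CTSB, a lysosomal protease, was above at both (0.63 and 0.43). NRF2 targets had 6 of 23 above at 12 h (26.1%, against 9.29% of all genes) and 1 below (4.35%, against 6.49%). At 48 h 1 NRF2 target lay above (4.35%, against 6.18%) and 2 below (8.7%, against 3.89%). GCLC, the limiting enzyme of glutathione synthesis, stood at 0.57 and 0.48. DNA replication genes split at 12 h into 6 above and 5 below, and at 48 h 0 of 43 lay on either side, with a median of -0.17 and control medians of -0.64 to 0.71 on single arrays. The other lists were p53 targets (medians 0.06 and 0.15), G2 and mitosis (0.13 and -0.01), fatty acid and glycerolipid synthesis (0.05 and -0.06), respiratory chain (-0.09 and -0.05), inflammatory cytokines and NF-kB (-0.16 and 0.00), heat shock (0.06 and -0.12), ion and water homeostasis (-0.21 and -0.02), apoptosis (-0.12 and 0.05) and glucocorticoid response (-0.18 and 0.08). Without Fk 12 h replicate 3 the 12 h median was 0.11 for ion and water homeostasis, 0.04 for glucocorticoid response and -0.05 for G2 and mitosis, so that these 3 changed sign with that array.

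**Figure D5:**
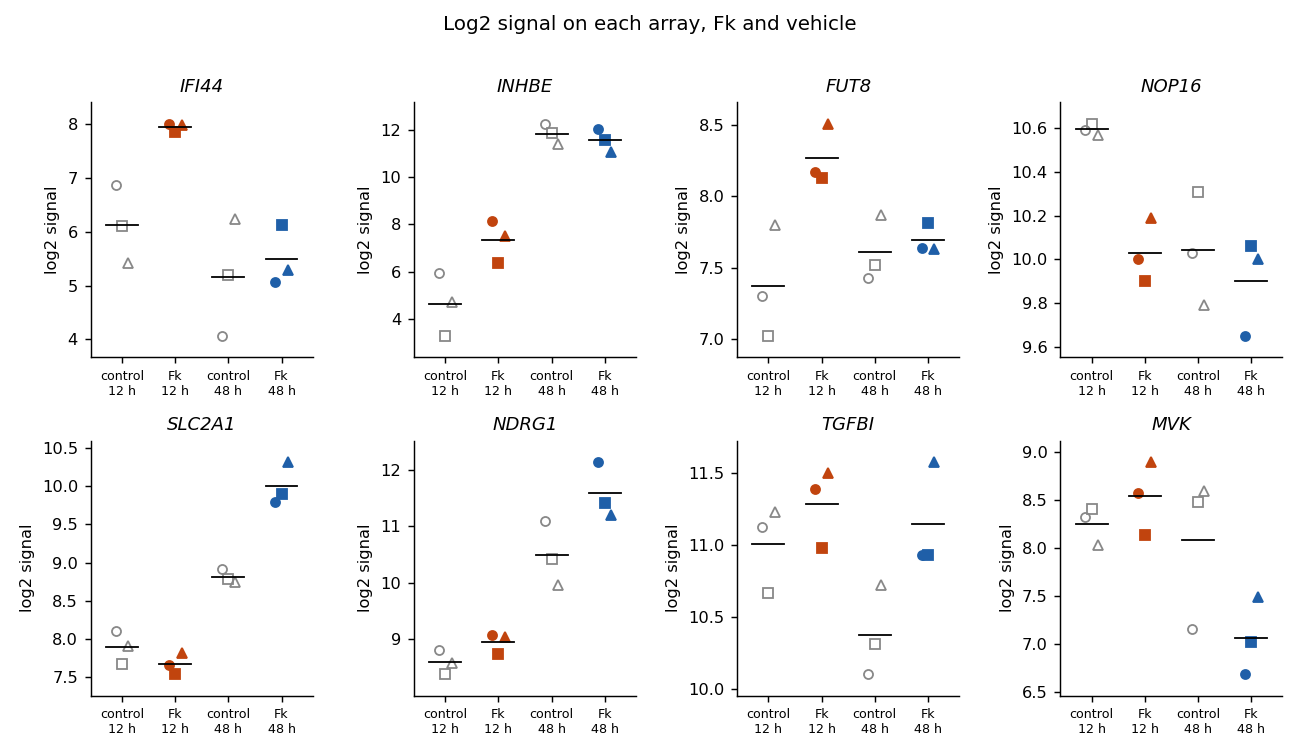
Log2 signal (vertical axis) of 8 genes on each of the 12 arrays, by group (horizontal axis), with symbols as in the plot of genes at both times. IFI44, INHBE, FUT8 and NOP16 are separated from the controls at 12 h and overlap them at 48 h; SLC2A1, NDRG1 and TGFBI lie above the controls at 48 h only, and MVK overlaps them at both times.

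Single genes with the smallest p at 12 h outside these lists included FUT8, the core fucosyltransferase, at 7.30, 7.02 and 7.80 on the controls and 8.17, 8.13 and 8.51 with Fk (0.90 ± 0.21, adjusted p = 0.303). RALA, a small GTPase, lay at 10.79, 10.64 and 10.47 against 10.19, 10.05 and 8.99 (-0.89 ± 0.21), and SBNO1 at 8.72, 8.70 and 8.0 against 7.81, 7.96 and 4.61 (-1.68 ± 0.43). For both genes replicate 3 was the lowest array by more than 1 unit, and without it the differences were -0.51 and -0.59. ANKRA2, HELQ (a DNA helicase), TCF15 and LINC01554 differed by 0.92 to 2.05, and HOXD4, RPRD2, UBE3A (a ubiquitin ligase), LPP, SFT2D3 and UBN2 by -1.10 to -0.55. Another probe set each of HOXD4 and RPRD2 gave 0.19 and 0.15 at 12 h, opposite in sign to those used. LPP differed by -0.67 in the set used, and its other 5 probe sets ran from -0.34 to 1.30. The other SBNO1 probe sets gave 0.09 and -1.16, and the other RALA probe set -0.01.

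The smallest p-values at 48 h belonged to PKP3, a desmosomal plakophilin, at 4.08, 4.41 and 4.32 on the controls and 3.76, 3.76 and 3.77 with Fk (-0.51 ± 0.10, adjusted p = 0.0849), to P4HA1 and to ALDH3A1. The Fk values of PKP3 lie near the floor. CELSR1, a planar cell polarity cadherin, lay at 7.64, 7.92 and 8.11 against 8.70, 8.93 and 8.98 (0.98 ± 0.24, adjusted p = 0.303). NALF1 (1.06), AXIN1, a scaffold of the Wnt pathway (1.11), and DOCK1 (0.76) were higher and LINC01881 (-1.08), DBNDD1 (-0.74), ASB5 (-2.05) and ARHGAP45 (-0.89) lower. The other DOCK1 probe sets gave -0.24 and -0.13 at 48 h, opposite in sign to the set used. In the fit of the 18 arrays of Fk, Ra and control, 1 gene was called at 48 h, ATP6V0D2, a subunit of the vacuolar proton pump, at 2.22 ± 0.25 (adjusted p = 0.00276).

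Fk and Ra share their 6 controls, and the 2 compounds were compared directly. At 12 h 1 gene was called (0.00881%): KLHL24, at 7.44 ± 0.37 (SD, n = 3) with Fk and 9.39 ± 0.37 with Ra, a difference of -1.94 ± 0.32 (SE, adjusted p = 0.00668), with Fk at 0.13 from its controls. The probe sets of KLHL24 disagreed: the other 4 put Fk at 0.11, 0.51, 1.98 and 2.15 from its controls at 12 h, so the call holds for the probe set used and not for the gene. The call was lost without Fk 12 h replicate 3 or Ra 12 h replicate 1 or 2 and in the fit of 18 arrays, where the gene called was YPEL1, and 32 genes were called without Fk 12 h replicate 2. At 48 h 1721 genes were higher with Fk (15.2%) and 241 lower (2.12%), and the split became 713 and 855 with arrays centred on their median and 832 and 688 after quantile normalization. The count was 555 without Ra 48 h replicate 2, whose upper quartile of signal was 6.20, 603 without Fk 48 h replicate 1, 1162 without Fk 48 h replicate 2 and 3062 without Ra 48 h replicate 1. ANK2, ankyrin B, was higher with Fk by 4.43 ± 0.49 and PCK2, the mitochondrial PEP carboxykinase, by 2.51 ± 0.35. CDC25A and CCNE1, drivers of entry into S phase, were lower with Fk, with differences of -1.69 ± 0.24 and -1.89 ± 0.27, with Fk at -0.28 and -0.27 from the controls and Ra at 1.41 and 1.62. For ANK2 Fk lay at 0.44 from the controls and Ra at -3.98. Against CsA, whose controls are separate arrays, the differences of Fk correlated across genes at r = 0.140 at 12 h and 0.141 at 48 h.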

How the data were processed

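Total RNA of HK-2 cells was labelled and hybridised to Affymetrix arrays. Per the submitters' processing notes, which name no version, the authors used GCRMA, and the deposited values are log2 signals; they ran from 0.7212 to 16.11 and were not normalized further. Of 54675 probe sets 62 were controls, 41091 had 1 gene symbol, 1801 several and 11721 none listed. Probe sets above log2 4 on at least 3 arrays were kept (20960), with the probe set of highest mean for each of 11356 genes.

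All 48 arrays (16 groups of 3) entered 1 limma fit (limma 3.58.1, R 4.3.3) with empirical Bayes moderation, without a replicate block, and p-values were adjusted over all genes by Benjamini-Hochberg at 0.05. The scripts were tested on simulated data. The comparison, its genes and the gene lists were chosen with earlier results of these data known. Named genes were all called genes and the genes of smallest p per direction whose arrays did not overlap. Members of smallest p of each list and a short set of kidney and compound-related genes were also named. Other genes, among them POLR1B, HEATR1, PLAUR, PIK3IP1 and CRTC2, were named after their values were seen. With 3 arrays a group the number of arrays limits the precision, as do values near the floor and probe sets of a gene that disagree. The alternatives were other filters, normalizations, array sets, weights, a replicate block, other probe sets and leaving out each array.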

Additional observations from a re-analysis of the deposited data

Results flagged for a closer look

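For 48 genes all Fk arrays lay on 1 side of the controls at 12 h and on the other at 48 h. Of these, 6 were flagged and are described here. RUNX1-IT1, a transcript from within the RUNX1 locus, gave -0.45 at 12 h and 1.06 at 48 h, and PKP3 gave 0.14 and -0.51. The difference between the times was 1.5 ± 0.33 and -0.65 ± 0.15, with an adjusted p of 0.412 for each (limma), and both genes lie near the floor of the signal. CXCL2, a chemokine, gave -1.69 and 0.58, with Fk 12 h replicate 3 at 7.00 against 9.73 and 9.26. VCAM1, an adhesion molecule, gave -1.10 and 0.77, LHX6 gave -0.66 and 0.81, and RSAD2, an antiviral enzyme, gave 1.25 and -0.50. For these 4 the difference between the times was 2.27 ± 1.30, 1.87 ± 0.92, 1.47 ± 0.42 and -1.75 ± 0.77, with an adjusted p of 0.9995 for each (limma), so none of the 6 passed the test.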

How the results depend on the processing

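The counts of called genes depended on the processing, and the cause was not tested. Without the filter on low values 9 genes were called at 12 h, 12 at 48 h, 5 for the mean, 2 for the difference between times and 9 for Fk minus Ra at 12 h, many of them near the floor. Array weights gave 836, 10, 198, 6 and 872 for the same comparisons. The 18 arrays of the set gave 1 gene at 48 h, 0 for the mean and 800 for Fk minus Ra at 48 h, and the 12 arrays alone 0 for the mean. Quantile normalization gave 2 for Fk minus Ra at 12 h. Testing each probe set gave 3304 of 20960 probe sets at 48 h, against 1962 of 11356 genes. With a replicate block 2 genes were called for the mean (SLC16A14 and ARRDC3), 3 for Fk minus Ra at 12 h and 2134 at 48 h; same-numbered arrays deviated together at r = 0.045, 0.243 and 0.157 at 12 h and 0.759, -0.020 and 0.584 at 48 h, so same-numbered arrays deviated together in 2 of 3 pairs at each time and the numbers were not taken as a pairing. Leaving out 1 array gave 0 to 5 at 12 h, 0 to 5 at 48 h, 0 to 2 for the mean, 0 to 1 for the difference between times (TUT1 without Fk 12 h replicate 2), 0 to 32 for Fk minus Ra at 12 h and 555 to 3062 at 48 h. Of 914 values of named genes under alternatives 845 kept direction and side, 54 became called, 11 lost the call and 4 reversed with another probe set: HOXD4 (0.19) and RPRD2 (0.15) at 12 h, DOCK1 (-0.13) at 48 h and NSUN4 (0.15) for the mean. Of 840 list medians 782 stayed within the spread between arrays.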

Other observations

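Some genes below the filter on low signal were regular at 1 time. TMPRSS3, a serine protease of epithelia, lay at 2.35, 2.36 and 2.35 on the 48 h controls and 3.04, 2.90 and 3.01 with Fk. SLIT3, a secreted guidance protein, lay at 3.27, 2.56 and 2.71 against 4.05, 3.86 and 3.78 at 48 h. ALDH2, the mitochondrial aldehyde dehydrogenase, lay at 2.76, 2.81 and 2.83 against 3.62, 3.17 and 3.86 at 12 h. These levels lie near the floor, so the sizes are uncertain.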
